A study of Mus musculus with 12 samples.

Results

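The mitochondrial carriers and uncoupling proteins were taken as every gene symbol made of Slc25a and digits, plus Ucp1, Ucp2 and Ucp3, which gave 49 genes among the 21125 of a deposited RNA-seq table. The table describes microglia, the resident macrophages of the brain, sorted by flow cytometry from mouse midbrain. Each gene's value is the sum of its rows, and these genes held 210 rows, between 1 and 15 each.

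The KO animals were labelled Ppargc1a FF CreER and the WT animals Ppargc1a FF, so both carry the conditional allele of Ppargc1a, a coactivator of mitochondrial biogenesis, and the CreER recombinase is named for KO alone. All groups, WT included, were labelled 6 weeks post tamoxifen, the drug that activates CreER. Within each genotype the animals received MPTP, a toxin of dopaminergic neurons, or PBS. By the labels there are 4 groups with 3 samples each, KO MPTP, KO PBS, WT MPTP and WT PBS. The sources used here give neither the promoter that drives CreER, nor the ages, nor whether the samples are of separate animals. The p-values can therefore reflect technical spread alone.

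Of the 12 columns, 6 equal other columns put through a fixed sum, to rounding, in nearly every row. The separate profiles are KO MPTP 2, KO PBS 1, KO PBS 2, WT MPTP 1, WT PBS 1 and WT PBS 2. The values of KO PBS 2 also stand under KO MPTP 1 times a constant, so the treatment behind that profile is not settled by the table. It is shown here as KO PBS 2 and was left out of the tests of MPTP and of genotype within a treatment. Ppargc1a itself measured 0.42 FPKM in KO MPTP, 0.33 and 0.12 FPKM in KO PBS, 2.72 FPKM in WT MPTP and 5.70 and 6.21 FPKM in WT PBS (FPKM being fragments scaled by transcript length and library total). All KO profiles lay below all WT profiles, and WT MPTP lay below both WT PBS profiles. Ppargc1a did not keep to the fixed sums between columns, however. It was 5.60 FPKM in WT PBS 3, under both separate WT PBS profiles, and 0.22 FPKM in KO MPTP 1 beside 0.12 FPKM in KO PBS 2. Which of these cells is at odds with the rest is not settled by the table. The microglial label was only partly matched by its markers, because Cx3cr1, P2ry12 and Siglech averaged 0.05, 0.19 and 0.03 FPKM while Csf1r averaged 117 FPKM. The macrophage markers Lyz2 and Cd68 averaged 1095 and 479 FPKM. The 2 neuronal markers measured summed to at most 0.03 FPKM in any profile. The depth of the libraries is unknown, so the counting error within each value cannot be estimated.

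The carriers sit in the inner membrane of the mitochondrion, where each exchanges or imports small molecules that the membrane would otherwise hold back, among them ADP and ATP, phosphate, citrate, aspartate, glutathione and cofactors. The uncoupling proteins belong to the same protein family. Ucp1 lets protons back across the membrane and produces heat in brown fat, whereas Ucp2, the form known from macrophages and microglia, has been linked to lower output of reactive oxygen species and to export of carbon metabolites.

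The DNA just upstream of Ucp2, the carrier whose level differed most between profiles, is shown beside that of Slc25a5, the most abundant carrier, whose level varied little. Both are the 250 bases before the gene's start, from RefSeq on build GRCm38.p6, on the plus strand, at chr7:100493108-100493357 for Ucp2 and chrX:36795347-36795596 for Slc25a5. Capitals mark a GC box, GGGCGG, here read on the other strand as CCGCCC.
Ucp2: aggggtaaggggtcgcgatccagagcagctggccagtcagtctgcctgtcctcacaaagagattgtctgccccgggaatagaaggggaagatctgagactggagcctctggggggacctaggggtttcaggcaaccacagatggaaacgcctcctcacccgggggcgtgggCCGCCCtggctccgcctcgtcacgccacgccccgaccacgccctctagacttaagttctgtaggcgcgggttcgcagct
Slc25a5: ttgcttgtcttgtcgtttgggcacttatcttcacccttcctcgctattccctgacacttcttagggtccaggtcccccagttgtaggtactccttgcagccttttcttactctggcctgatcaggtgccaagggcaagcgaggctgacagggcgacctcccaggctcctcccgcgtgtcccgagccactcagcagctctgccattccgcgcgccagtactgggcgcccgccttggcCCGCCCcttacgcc
Each window held 1 GC box, and the GC content was 63.6% for Ucp2 and 61.6% for Slc25a5. Over all carriers with a RefSeq window, 25 of 38 genes held GGGCGG on either strand, and 66.7% of their 48 windows did, against 32.7% of all 32851 windows of this length. Motifs bound by partners of the Ppargc1a protein were searched on both strands as well. TCAAGGTCA, the element of the estrogen-related receptors, was in 0 carrier windows and 0.387% of all windows. The core bound by NRF1 was in 0 carrier windows and 0.782% of all windows, and a PPAR direct repeat was in 0 carrier windows and 0.0335% of all. These counts say only which letters stand in these windows.

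The sorted cells expressed a few carriers at a high level and most at a low one. Of the 49 genes, 4 averaged at least 100 FPKM over the separate profiles, 17 averaged at least 10 FPKM, and 36 reached 1 FPKM in at least 3 of the 6 profiles and were tested. The 13 untested genes stayed at or under 0.51 FPKM in each separate profile, and 9 of them stayed under 0.1 FPKM. The 5 highest genes held 70.8% of the summed level of all 49. The values were taken as FPKM, which is per length, and levels and shares are set side by side between genes on that basis. The unit is inferred and each level is a sum over rows of unstated definition, so these comparisons between genes are approximate.

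**Figure D1:**
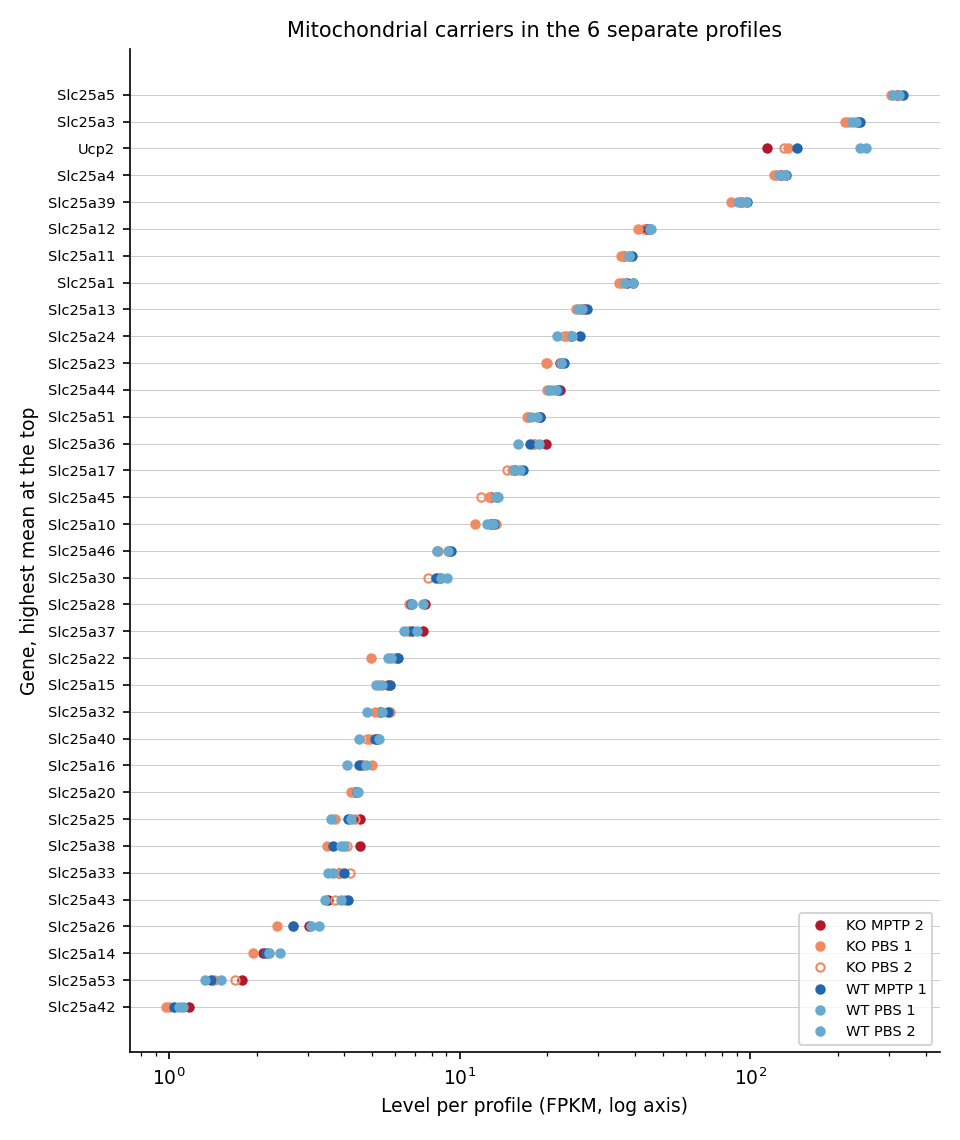
Level of 35 of the 36 tested carriers in the 6 separate profiles, in FPKM on a log axis, with 1 point per profile and the highest mean at the top. The points of a gene lie close together except for Ucp2, whose WT PBS points at 237.67 and 249.03 FPKM stand apart from the other 4.

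The carriers of adenine nucleotides and phosphate supply ATP synthase with its substrates and export its product, and they made up 54.7% of the summed level. Slc25a5, the ubiquitous ADP/ATP carrier, was the most abundant. It measured 320.03 FPKM in KO MPTP, 303.88 and 320.94 FPKM in KO PBS, 334.46 FPKM in WT MPTP and 310.03 and 324.63 FPKM in WT PBS. The groups overlapped. Slc25a3, the phosphate carrier, measured 234.37 FPKM in KO MPTP, 211.01 and 216.47 FPKM in KO PBS, 237.49 FPKM in WT MPTP and 223.38 and 231.08 FPKM in WT PBS, again with overlap between genotypes. Slc25a4, the ADP/ATP carrier of heart and muscle, averaged 127 ± 4.70 FPKM over the 6 profiles. The ratio of Slc25a5 to Slc25a4 stayed between 2.47 and 2.61 in the separate profiles. Slc25a4 and Slc25a5 are closely similar in sequence, and how shared reads were assigned between them is not given in the sources used here. Slc25a24, Slc25a23 and Slc25a25, the calcium-regulated exchangers of ATP-Mg for phosphate, averaged 23.7, 21.5 and 4.10 FPKM. Slc25a31, the ADP/ATP carrier of the male germ line, did not exceed 0.01 FPKM.

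Among the uncoupling proteins and their closest relatives, Ucp2 held nearly the whole level. Ucp1 measured 0.03 FPKM in KO MPTP, 0.05 and 0.03 FPKM in KO PBS, 0.04 FPKM in WT MPTP and 0.03 and 0.02 FPKM in WT PBS. Ucp3, the form of skeletal muscle, measured 0.04 FPKM in KO PBS 1 and 0.01 FPKM in each of the other separate profiles. Ucp3 is 1 of the 2 genes next to Ucp2 in the reference gene order. The relatives Slc25a30 and Slc25a14 averaged 8.46 and 2.17 FPKM, and Slc25a27, described in brain, did not exceed 0.01 FPKM. Slc25a30 measured 8.54 FPKM in KO MPTP, 8.46 and 7.79 FPKM in KO PBS, 8.28 FPKM in WT MPTP and 9.07 and 8.61 FPKM in WT PBS, and the ranges of KO and WT overlapped. The markers of brown fat, the main site of Ucp1, summed to at most 0.27 FPKM in any profile.

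Ucp2 was lower in every KO profile and in WT MPTP than in WT PBS. It measured 114.41 FPKM in KO MPTP, 134.29 and 130.53 FPKM in KO PBS, 144.72 FPKM in WT MPTP and 237.67 and 249.03 FPKM in WT PBS. The WT PBS profiles stood alone at the top, and WT MPTP lay far nearer to the KO profiles than to WT PBS. Among the 49 genes Ucp2 had rank 4 in KO MPTP, rank 3 in KO PBS and in WT MPTP, and rank 2 in WT PBS. Its share of the summed carrier level was 8.93% in KO MPTP, 10.99% and 10.37% in KO PBS, 10.8% in WT MPTP and 17.3% and 17.6% in WT PBS. The ratio of Ucp2 to Slc25a5 was 0.357 in KO MPTP, 0.442 and 0.407 in KO PBS, 0.433 in WT MPTP and 0.767 in both WT PBS profiles. In these bulk samples, fewer cells of a type and less RNA per cell cannot be told apart. The marker Csf1r lay between 110 and 121 FPKM in KO and between 119 and 121 FPKM in WT, and the macrophage markers to between 1613 and 1767 FPKM in KO and between 1831 and 1888 FPKM in WT. The macrophage sums did not overlap between genotypes, with KO lower, but they were not scaled to the column sums, the totals over all genes. Those were 409278 in KO MPTP, 388861 and 389882 in KO PBS, 425554 in WT MPTP and 401733 and 411690 in WT PBS. The part of the markers and of the column sums in the result was not tested.

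**Figure D2:**
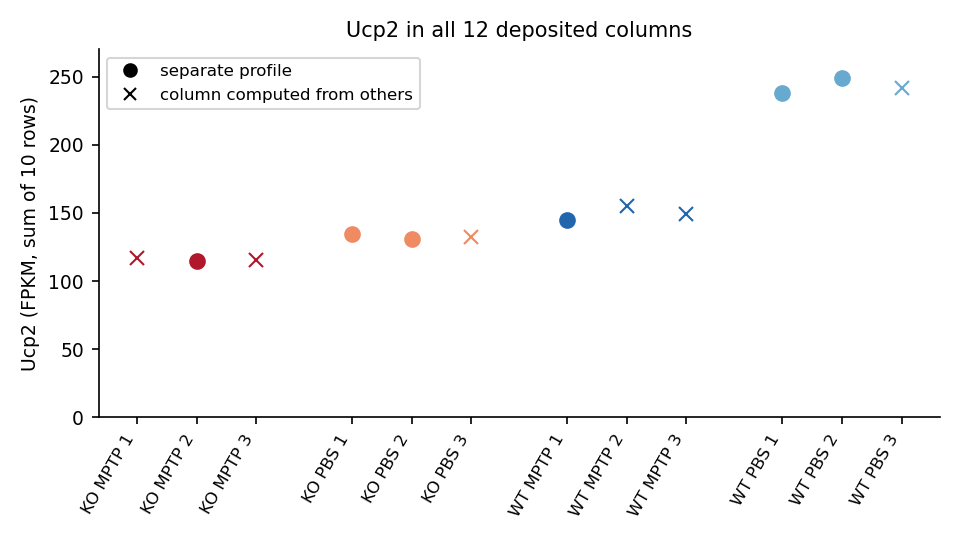
Ucp2 in all 12 deposited columns, in FPKM as the sum of 10 rows, with filled circles for separate profiles and crosses for columns computed from others. KO MPTP, KO PBS and WT MPTP lie between 114.41 and 155.28 FPKM, and WT PBS between 237.67 and 249.03 FPKM.

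Ucp2 was lower in the single WT MPTP profile than in both WT PBS profiles. The difference between WT MPTP 1 and the WT PBS profiles on the log2(FPKM + 1) scale was -0.75 ± 0.08 (SE), a level 0.597 times that of WT PBS, and it passed the threshold of 0.05 (adjusted p = 0.00472, limma with Benjamini-Hochberg adjustment over 10634 genes). Ucp2 was the only carrier called, 1 of 36 tested, where 0.254% of all tested genes were called in either direction, 0.207% as lower and 0.047% as higher. The other 35 carriers lay between -0.19 and 0.17, and the median of the 36 was 0.04, as was that of all tested genes. The WT MPTP arm is 1 profile with no spread of its own, which the fit assumed to vary like the WT PBS pair, so MPTP and the variation of 1 sample cannot be told apart. Most calls over all genes were lost here when genes whose rows break the fixed sums between columns, Ucp2 among them, were left out. On simulated data the fit made more false calls than its threshold allows, which bears on this call of Ucp2 and on that under PBS. Without the filter on low values, which raised the tests to 20425 genes, the call was lost (adjusted p = 0.414, limma).

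MPTP in KO gave no called carrier of 36, where 0.292% of all tested genes were called. By limma, 4 carriers had an unadjusted p under 0.05, a level that 9.23% of all tested genes passed. Ucp2 was 114.41 FPKM in KO MPTP 2 and 134.29 FPKM in KO PBS 1, a difference of -0.23 ± 0.09 (SE, adjusted p = 0.498, limma). Slc25a38, the glycine carrier of haem synthesis, measured 4.55 FPKM in KO MPTP and 3.49 and 4.09 FPKM in KO PBS. Its difference of 0.31 was taken against KO PBS 1 alone, the profile at 3.49 FPKM, and was not called. The carriers' median difference was 0.09, as was that of all tested genes, and 32 of the 36 lay above 0. Centring each profile on its median moved the median of all genes from 0.09 to -0.01 and left 17 carriers above 0. The MPTP differences of the genotypes were also set against each other. The interaction was 0.52 ± 0.12 for Ucp2 and did not pass (adjusted p = 0.290, limma, with 0 carriers called where 0.0752% of all genes were, and 3 carriers at an unadjusted p under 0.05, beside 5.17% of all genes). The smaller difference in KO than in WT is therefore not shown to be a difference between genotypes.

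Ucp2 was also lower in KO PBS 1, the 1 KO profile of this test, than in WT PBS. The level was 134.29 FPKM in KO PBS 1, against 237.67 and 249.03 FPKM in WT PBS, a difference of -0.85 ± 0.08 (SE), or 0.554 times WT PBS (adjusted p = 0.00159, limma). It was again the only carrier called, 1 of 36, where 0.226% of all tested genes were called, each of them lower in KO. The other 35 carriers lay between -0.32 and 0.15 with both medians, of the 36 and of all genes, at -0.06. After Ucp2, the lowest difference was that of Slc25a26, the carrier of S-adenosylmethionine, which measured 2.36 FPKM in KO PBS 1, against 3.09 and 3.29 FPKM in WT PBS, and did not pass (difference -0.32, adjusted p = 0.908, limma). This comparison and that of MPTP in WT share the WT PBS profiles, and that pair also supplies the spread for the single KO profile. Without the filter the Ucp2 call was lost here too (adjusted p = 0.372, limma).

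**Figure D3:**
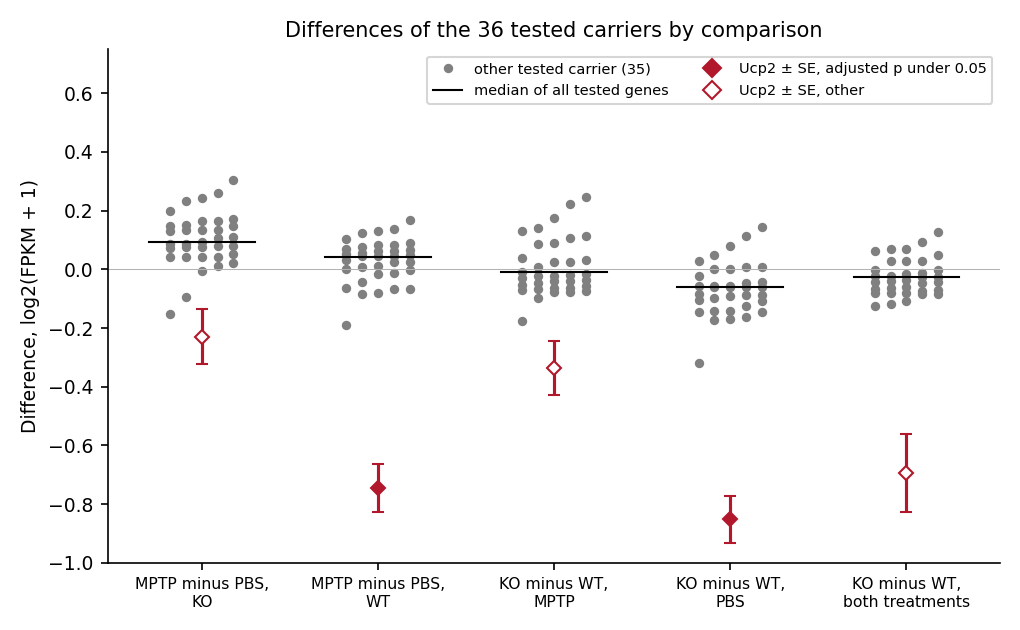
Difference on the log2(FPKM + 1) scale for the 36 tested carriers in 5 comparisons, with grey points for 35 carriers, a diamond with its SE for Ucp2 (filled where the adjusted p is under 0.05) and a line at the median of all tested genes. Ucp2 lies at -0.75 for MPTP in WT and at -0.85 for KO against WT under PBS, below the other carriers in all 5 comparisons.

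Under MPTP the genotypes gave no called carrier of 36, where 0.103% of all tested genes were called (0.0658% lower in KO), and 1 carrier had an unadjusted p under 0.05, beside 3.59% of all genes (limma). Ucp2 was 114.41 FPKM in KO MPTP 2 and 144.72 FPKM in WT MPTP 1, a difference of -0.34 ± 0.09 (SE, adjusted p = 0.527, limma). The carriers' median was -0.02 and that of all genes -0.01.

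Over both treatments, 3 KO and 3 WT profiles could be compared, the profile under both KO labels included. Ucp2 averaged 126 ± 10.6 FPKM in KO and 210 ± 57.2 FPKM in WT (SD, n = 3 each), and its groups did not overlap. The difference was -0.69 ± 0.13 (SE) and missed the threshold (adjusted p = 0.0701, limma, 0 of 36 carriers called where 0.0376% of all genes were, and 1 carrier at an unadjusted p under 0.05, beside 3.49% of all genes). An exact two-sided permutation test gave p = 0.1, the smallest that 3 against 3 allows. Ucp2 was called with a filter at 5 FPKM (adjusted p = 0.000538, limma). It was also called with treatment in the model and the profile under both KO labels taken as KO PBS (adjusted p = 0.017, limma). It was not called with profiles centred on the median (adjusted p = 0.98, limma), with quantile normalization (adjusted p = 0.999, limma) or without the filter (adjusted p = 0.939, limma). The call also depended on single profiles. It was made without WT PBS 1 (adjusted p = 0.00035, limma), without WT MPTP 1 (adjusted p = 7.61e-08, limma), without KO PBS 1 (adjusted p = 0.0121, limma) or without KO PBS 2 (adjusted p = 0.00149, limma). It was not made without WT PBS 2 (adjusted p = 0.99, limma) or without KO MPTP 2 (adjusted p = 0.462, limma). Without WT PBS 2 the difference was -0.55.

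In 5 of the 36 carriers (13.9%), every KO profile lay below every WT profile, where 7.19% of all tested genes did so. Beside Ucp2 they were Slc25a11, the oxoglutarate/malate carrier, Slc25a12, the aspartate/glutamate carrier, Slc25a23 and Slc25a45, which belongs to the group of the carnitine carrier. Slc25a12 measured 43.69 FPKM in KO MPTP, 40.88 and 42.98 FPKM in KO PBS, 44.85 FPKM in WT MPTP and 45.18 and 45.32 FPKM in WT PBS. Slc25a11 measured 36.86 FPKM in KO MPTP, 35.76 and 36.53 FPKM in KO PBS, 38.99 FPKM in WT MPTP and 38.30 and 38.36 FPKM in WT PBS. The steps between genotypes were small, with KO means of 42.5 and 36.4 FPKM and WT means of 45.1 and 38.6 FPKM for Slc25a12 and Slc25a11. These levels were not scaled to the column sums, which ran from 388861 to 409278 in KO and from 401733 to 425554 in WT. Whether these small steps remain after such scaling was not tested. No carrier had every KO profile above every WT profile, against 0.818% of all tested genes, and the median KO minus WT difference was -0.04 for the carriers and -0.03 for all genes.

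The fall of Ucp2 lay mainly in 2 of its 10 rows. What a row stands for is not given in the sources used here. Row Ucp2_3 measured 36.82 FPKM in KO MPTP, 49.97 and 49.00 FPKM in KO PBS, 58.86 FPKM in WT MPTP and 120.38 and 119.96 FPKM in WT PBS. Row Ucp2_1 measured 28.27 FPKM in KO MPTP, 33.64 and 33.92 FPKM in KO PBS, 34.36 FPKM in WT MPTP and 64.32 and 75.05 FPKM in WT PBS. Both rows had the same order of groups as the gene. Together they held 98.0% of the difference between WT MPTP and WT PBS and 97.4% of that between KO PBS 1 and WT PBS. The other 8 rows summed to 49.32 FPKM in KO MPTP, 50.68 and 47.61 FPKM in KO PBS, 51.50 FPKM in WT MPTP and 52.97 and 54.02 FPKM in WT PBS. Thus one portion of the gene's signal varied widely while the rest stayed within a narrow range. Row Ucp2_4 measured 25.67 FPKM in KO MPTP, 25.37 and 25.26 FPKM in KO PBS, 26.51 FPKM in WT MPTP and 26.20 and 29.40 FPKM in WT PBS. Rows Ucp2_1 and Ucp2_3 made up 56.9% of Ucp2 in KO MPTP, 62.3% and 63.5% in KO PBS, 64.4% in WT MPTP and 77.7% and 78.3% in WT PBS.

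**Figure D4:**
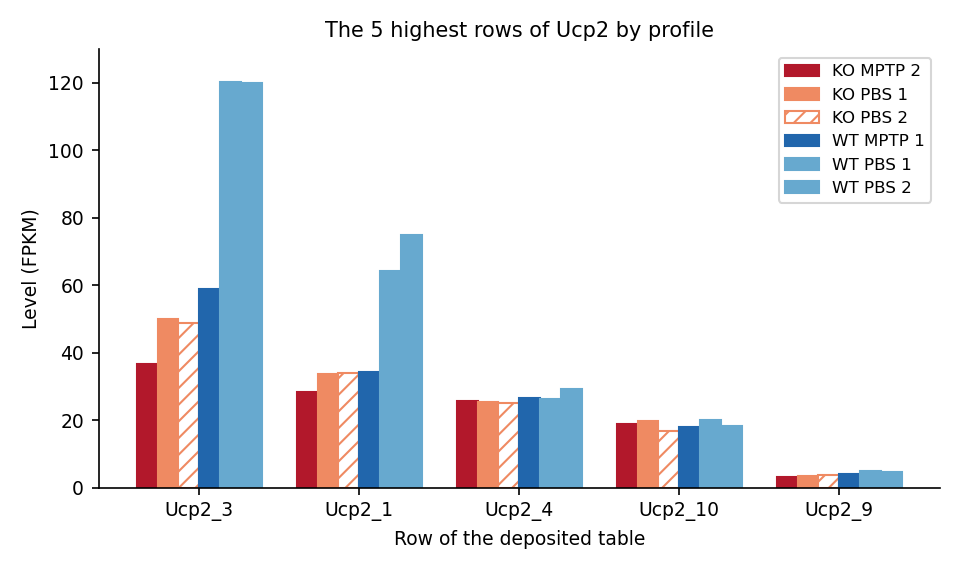
The 5 highest rows of Ucp2 in the 6 separate profiles, in FPKM, with 1 bar per profile and no error bars because each bar is 1 value. Ucp2_3 and Ucp2_1 are highest in both WT PBS profiles, at 120.38 and 119.96 FPKM and at 64.32 and 75.05 FPKM, while Ucp2_4 and Ucp2_10 keep similar heights.

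A fit on single rows, added after the values had been seen, called none of 19093 rows in any of the 6 comparisons by limma, with between 650 and 1408 rows at an unadjusted p under 0.05. It tested 75 rows of carriers and called 0 of them. Row Ucp2_3 gave a difference of -1.02 for MPTP in WT and -1.25 for KO against WT under PBS (unadjusted p = 0.000256 and 0.000125, adjusted p = 1 and 0.477, limma). Rows of other carriers also differed between profiles, and none passed. Row Slc25a51_5 of the NAD carrier measured 1.51 FPKM in KO MPTP, 1.93 and 1.22 FPKM in KO PBS, 1.40 FPKM in WT MPTP and 0.00 and 0.08 FPKM in WT PBS, and the gene as a whole averaged 17.7 FPKM in KO and 18.3 FPKM in WT. Row Slc25a1_2 of the citrate carrier was 0.07 FPKM in KO MPTP, 3.72 and 4.68 FPKM in KO PBS, 4.91 FPKM in WT MPTP and 4.04 and 3.25 FPKM in WT PBS. These rows were picked after their values were seen, and their adjusted p lay between 0.614 and 1 in the comparisons where the unadjusted p was under 0.05 (limma).

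Ucp2 was also the only carrier whose values broke the fixed sums that tie the columns together. Under WT MPTP 2 the gene was 155.28 FPKM, against 144.72 FPKM in WT MPTP 1, and under KO MPTP 1 it was 117.00 FPKM, against 130.53 FPKM in KO PBS 2. Over all genes, 49 rows of 42 genes departed in this way, 5 of them rows of Ucp2. Leaving these genes out lowered the number of called genes in each of the 6 comparisons. Most calls were lost for MPTP in WT, MPTP in KO, KO against WT under MPTP and KO against WT over both treatments. A smaller part was lost for KO against WT under PBS and for the interaction. The shares of all genes called, given above, therefore rest in good part on departing genes. The main tests of Ucp2 leave out WT MPTP 2 and KO MPTP 1. They do use WT MPTP 1 and, over both treatments, KO PBS 2, the profiles these columns are set against. Which cell of each such pair is at odds with the rest is not settled by the table. Rows Ucp2_1 and Ucp2_3, which held most of the difference, are among the departing rows.

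The remaining carriers varied little. The coefficient of variation over the 6 profiles was 34.99% for Ucp2 and between 1.99% and 11.96% for the other tested carriers, of which the 16 that averaged at least 10 FPKM reached at most 7.21%. The median over the 36 was 5.68%, and over all tested genes 5.59%. Of 5374 tested genes that averaged at least 10 FPKM, 14 (0.261%) varied as much as Ucp2 or more. Without Ucp2, the carriers summed to 1167 FPKM in KO MPTP, 1087 and 1128 FPKM in KO PBS, 1199 FPKM in WT MPTP and 1138 and 1168 FPKM in WT PBS. Both KO PBS sums lay below both WT PBS sums, and the ranges of KO and WT over both treatments overlapped. The column sums over all genes had the same order, at 388861 and 389882 in KO PBS and 401733 and 411690 in WT PBS.

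Carriers of iron and glutathione held 8.48% of the summed level, nearly all in Slc25a39, which imports glutathione. Slc25a39 measured 92.58 FPKM in KO MPTP, 85.84 and 93.19 FPKM in KO PBS, 97.31 FPKM in WT MPTP and 90.84 and 96.79 FPKM in WT PBS. The iron importers Slc25a28 and Slc25a37 averaged 7.05 and 6.88 FPKM, at overlapping levels, and Slc25a40, related to Slc25a39, averaged 4.97 FPKM. Slc25a28 measured 7.61 FPKM in KO MPTP, 6.69 and 6.85 FPKM in KO PBS, 6.81 FPKM in WT MPTP and 6.87 and 7.49 FPKM in WT PBS. None of the 4 was called in any comparison.

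Amino acid carriers held 8.12%. Slc25a12 and Slc25a13, both aspartate/glutamate carriers of the malate-aspartate shuttle, averaged 43.8 and 26.2 FPKM without overlap. Slc25a13 measured 26.73 FPKM in KO MPTP, 25.13 and 26.12 FPKM in KO PBS, 27.48 FPKM in WT MPTP and 26.29 and 25.53 FPKM in WT PBS. Slc25a44, a carrier of branched-chain amino acids, averaged 21.0 FPKM, and the glutamate carrier Slc25a22 averaged 5.77 FPKM. The other glutamate carrier, Slc25a18, stayed at or under 0.33 FPKM in the separate profiles and was not tested.

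Carriers of di- and tricarboxylates held 6.66%. Slc25a11 averaged 37.5 FPKM and the citrate carrier Slc25a1 averaged 37.4 FPKM, with overlapping ranges. Slc25a1 measured 37.56 FPKM in KO MPTP, 35.29 and 36.11 FPKM in KO PBS, 39.37 FPKM in WT MPTP and 36.95 and 39.31 FPKM in WT PBS. The dicarboxylate carrier Slc25a10 averaged 12.6 FPKM.

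Cofactor and nucleotide carriers held 5.98%, and all 9 were tested. The highest were Slc25a51 and Slc25a36, a pyrimidine nucleotide carrier, both at 18.0 FPKM and overlapping. Slc25a51 measured 18.95 FPKM in KO MPTP, 17.18 and 17.10 FPKM in KO PBS, 18.85 FPKM in WT MPTP and 18.39 and 17.53 FPKM in WT PBS. Slc25a36 measured 19.76 FPKM in KO MPTP, 17.94 and 18.00 FPKM in KO PBS, 17.41 FPKM in WT MPTP and 18.79 and 15.92 FPKM in WT PBS. The ranges of KO and WT overlapped for both genes. Slc25a17, which serves the peroxisome, averaged 15.5 FPKM.

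The carnitine carrier and its relatives held 1.35%. Slc25a20, which brings acylcarnitines to fatty acid oxidation, was the least variable of the tested carriers, at 4.38 FPKM in KO MPTP, 4.22 and 4.42 FPKM in KO PBS, 4.44 FPKM in WT MPTP and 4.46 and 4.42 FPKM in WT PBS. Slc25a45 was the more abundant member, at 12.82 FPKM in KO MPTP, 12.61 and 11.85 FPKM in KO PBS, 13.45 FPKM in WT MPTP and 13.59 and 13.37 FPKM in WT PBS. Outer membrane and unassigned members held 1.07%. Slc25a46, an outer membrane protein of mitochondrial shape, measured 9.16 FPKM in KO MPTP, 8.42 and 8.35 FPKM in KO PBS, 9.36 FPKM in WT MPTP and 9.10 and 8.37 FPKM in WT PBS. Slc25a43 measured 3.53 FPKM in KO MPTP, 4.04 and 3.71 FPKM in KO PBS, 4.12 FPKM in WT MPTP and 3.43 and 3.89 FPKM in WT PBS. Neither was called in any comparison.

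Genes that work beside the carriers were read for comparison, in 4 lists of 61 genes, of which 55 were tested. They were the import machinery of carrier proteins, other transporters of the inner membrane, channels of the outer membrane, and enzymes of the metabolite shuttles. Among the most abundant were Tomm20, a receptor of protein import, at 183 FPKM on average, Mpc1, a subunit of the pyruvate carrier, at 82.5 FPKM, Vdac2, an outer membrane channel, at 171 FPKM, and Mdh2, the malate dehydrogenase of the matrix, at 196 FPKM. By limma, 0 of the 55 were called in each of the 6 comparisons, and between 0 and 4 had an unadjusted p under 0.05. Their median difference was 0.06 for MPTP in WT and -0.08 for KO against WT under PBS, beside 0.04 and -0.06 for all genes. The single genes lay between -0.05 and 0.22 for MPTP in WT and between -0.22 and 0.18 for KO against WT under PBS.

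The tested genes whose log2(FPKM + 1) followed Ucp2 most closely over the 6 profiles were Dgat2, Dusp1, Fkbp4, Ppp1r15a and Cebpb, with Pearson r between 0.979 and 0.996. Cebpb, a transcription factor, measured 57.06 FPKM in KO MPTP, 55.86 and 58.55 FPKM in KO PBS, 75.13 FPKM in WT MPTP and 169.88 and 152.85 FPKM in WT PBS. Dgat2, an enzyme of triglyceride synthesis, measured 6.66 FPKM in KO MPTP, 6.85 and 6.97 FPKM in KO PBS, 7.25 FPKM in WT MPTP and 8.68 and 8.91 FPKM in WT PBS. All of these r values rest on the same 6 profiles and mainly on the gap between WT PBS and the rest, and Fkbp4 and Cebpb are among the 42 genes with departing rows. The carrier most like Ucp2 was Slc25a1, with r of 0.381. The genes most like Slc25a5 were Mrpl11, Psmc3, Arhgdia, Psmd4 and Bak1, with r between 0.993 and 0.996, and the carrier most like it was again Slc25a1, with r of 0.830.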

How the data were processed

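RNA-seq values of cells described as sorted midbrain microglia were analysed in 4 groups of 3 labelled samples. The authors deposited 1 table whose unit no header states. The deposited values were taken as FPKM because Cufflinks, named with CASAVA 1.5, Bowtie 0.12.7, TopHat and the build mm9 in the submitters' processing notes, writes that unit. The single values of 1 carrier and 1 marker are not reported here. Column sums ran from 388861 to 434022, and depth is unknown. 1 row with a text cell was left out, and rows were summed per symbol. Columns that other columns give to rounding were not used as replicates, so 6 profiles remained. No genome of build mm9 was used, and the RefSeq windows are of another build.

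limma 3.58.1 in R 4.3.3 was run on log2(FPKM + 1) with a trend of variance on mean level, for the 10634 genes that reached 1 FPKM in 3 or more of the 6 profiles. P-values were adjusted by Benjamini-Hochberg, and the threshold was 0.05. Such fold changes understate those of low genes. 5 profiles entered the fit of treatment and genotype (1 residual and 9.01 prior degrees of freedom), and 6 entered that of genotype alone. The procedure was tested on simulated data, where the fit of 5 profiles made more false calls than the threshold allows when genes had been changed. The members and lists were chosen with earlier results of these data known. Any carrier could be named. Values in every profile were planned for called carriers, the 2 most abundant of each role and the 3 uncoupling proteins, and the 5 genes most like Ucp2 and Slc25a5 are named. Slc25a38, Slc25a26 and single rows were picked after their values were seen. Alternatives were other pseudocounts (0.1 and 0.5), filters, scalings, profiles left out, all 12 columns, the replicate block and single rows.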

Additional observations from a re-analysis of the deposited data

Results flagged for a closer look

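2 cells of Ucp2 stood out in columns that the comparisons did not use. In KO MPTP 1, row Ucp2_3 was deposited as 37.81 FPKM, where the constant multiple of KO PBS 2 gives 49.98 FPKM, a departure of -12.17 FPKM. In WT MPTP 2, the same row was deposited as 67.61 FPKM, where the constant multiple of WT MPTP 1 gives 60.04 FPKM, a departure of 7.573 FPKM. Rounding to 2 decimals cannot give departures of this size. No other carrier departed from these relations, and what gave the departures was not tested.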

How the results depend on the processing

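Ucp2 kept its direction in each comparison under every alternative that gave it a value. On separate profiles, its difference lay between -0.79 and -0.71 for MPTP in WT and between -0.91 and -0.72 for KO against WT under PBS, and each was called under 10 of 11 alternatives (limma). The exception was no filter, where the count of called carriers was 0 in both comparisons. Leaving out the genes that break the column relations also gave 0, because Ucp2 is one of them, and single rows gave 0. For KO against WT over both treatments, leaving out 1 profile gave between 0 and 1 called carriers. That count was 1 with a filter at 5 FPKM, with the profile under both KO labels left out, and with treatment in the model and that profile as KO PBS. The count stayed at 0 with median centring, with quantile normalization and without the filter. Taking all 12 columns as libraries treats computed columns as replicates. It called 9 carriers for MPTP in WT, 1 for MPTP in KO, 8 for KO against WT under PBS, 9 under MPTP, 8 over both treatments and 1 for the interaction. With the replicate block as well, these counts were 14, 14, 14, 14, 7 and 4. On the separate profiles, the replicate block called 1 carrier over both treatments (Ucp2, -0.74, adjusted p = 1.71e-12, limma). Same-numbered columns correlated between -0.19 and 0.997 in their deviations from the group means, and the labels give the numbers no meaning, so they were not read as pairs. Of 94 alternative counts of called carriers, 68 equalled the reported one. Most reported counts were 0, where only another 0 could match, so this number does not measure how firm the Ucp2 calls are.

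The main limits are the single profiles in 3 of the 4 groups, the profile under both KO labels, and the unknown depth and row definition. The fit of 5 profiles, behind both Ucp2 calls, made more false calls on simulated data than its threshold allows. With 1 residual degree of freedom, it could not be repeated without a WT PBS profile unless KO PBS 2 was added. Carriers under 1 FPKM were not tested.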
